A study of Mus musculus with 6 samples.

Results

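Cholesterol synthesis was followed in mouse liver through 7 enzymes, Hmgcs1, Idi1, Fdft1, Sqle, Cyp51, Tm7sf2 and Ebp, out of 18820 genes measured. The enzymes were chosen with earlier results of these data known, and their probe sets were found by name. A probe set counted for an enzyme where its only annotated gene symbol was that of the enzyme. The brightest of several such probe sets, by its mean over the 6 arrays, was taken. All 7 were found. Livers came from 2-month-old C57BL6 mice: 4 were Pcyt2+/- by genotype (labelled replicates 1 to 4) and 2 were wild type (labelled replicates 3 and 4). Every mouse had an array of its own, and no treatment was named. Pcyt2 encodes the enzyme that makes CDP-ethanolamine for phosphatidylethanolamine. The sample titles call the Pcyt2+/- mice knock-out, and a mouse with this genotype keeps 1 wild type allele. The sources used here do not give how the allele was made, nor sex or feeding of the mice.

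Cells build cholesterol from acetyl-CoA through mevalonate and isoprenoid diphosphates to squalene, which is oxidised, closed into lanosterol and trimmed to cholesterol. Liver is a main site of this synthesis. The transcription factor SREBP2 drives most of these genes when sterol in the endoplasmic reticulum is low, and together with it the factors NF-Y and Sp1 bind many of their promoters. Of the 7, Hmgcs1, Idi1 and Fdft1 act before squalene, Fdft1 being the squalene synthase, and Sqle, Cyp51, Tm7sf2 and Ebp act on squalene or on the sterols made from it.

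The RefSeq promoter table for GRCm38.p6 held 5 of the 7 enzymes. The 250 bases before the start of each are shown because the enzymes answer to a shared set of factors. Capitals mark matches, on either strand, to the sterol regulatory element core TCACNCCAC, the NF-Y box CCAAT and the GC box GGGCGG of Sp1.
Hmgcs1, chr13:119690101-119690350, plus strand: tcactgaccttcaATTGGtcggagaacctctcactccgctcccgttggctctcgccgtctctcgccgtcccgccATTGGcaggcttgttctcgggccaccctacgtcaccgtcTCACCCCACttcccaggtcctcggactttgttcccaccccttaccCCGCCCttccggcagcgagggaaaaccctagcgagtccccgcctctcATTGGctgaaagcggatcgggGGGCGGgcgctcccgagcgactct
Idi1, chr13:8885356-8885605, plus strand: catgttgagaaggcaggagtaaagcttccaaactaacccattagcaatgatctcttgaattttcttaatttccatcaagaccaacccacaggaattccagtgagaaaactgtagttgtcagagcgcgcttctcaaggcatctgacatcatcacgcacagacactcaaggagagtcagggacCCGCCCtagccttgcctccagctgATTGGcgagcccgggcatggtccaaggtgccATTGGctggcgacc
Cyp51, chr5:4104698-4104947, minus strand: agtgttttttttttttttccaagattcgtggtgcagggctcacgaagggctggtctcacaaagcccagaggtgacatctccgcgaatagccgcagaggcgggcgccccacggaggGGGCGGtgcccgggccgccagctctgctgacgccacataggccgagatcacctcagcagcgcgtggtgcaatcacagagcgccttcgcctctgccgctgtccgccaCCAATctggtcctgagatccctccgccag
Tm7sf2, chr19:6067851-6068100, minus strand: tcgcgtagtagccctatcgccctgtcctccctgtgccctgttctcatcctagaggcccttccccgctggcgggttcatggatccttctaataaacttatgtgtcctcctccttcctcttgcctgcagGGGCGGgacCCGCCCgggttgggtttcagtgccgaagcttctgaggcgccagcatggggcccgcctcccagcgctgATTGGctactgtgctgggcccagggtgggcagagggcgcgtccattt
Ebp, chrX:8193513-8193762, minus strand: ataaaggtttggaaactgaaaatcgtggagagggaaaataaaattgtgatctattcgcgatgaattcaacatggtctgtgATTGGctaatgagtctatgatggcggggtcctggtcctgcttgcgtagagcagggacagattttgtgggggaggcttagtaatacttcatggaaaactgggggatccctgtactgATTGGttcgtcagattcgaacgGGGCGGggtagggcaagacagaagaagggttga
Each of the 5 windows held an NF-Y box and a GC box, which 33.9% and 32.7% of 32841 mouse promoter windows of the same length held. The sterol regulatory element core was matched in 1 of the 5, that of Hmgcs1, 137 bases before the start, against 1.05% of all windows. No match overlapped another. Hmgcs1 had 3 NF-Y boxes, Idi1 and Ebp 2 each, and Cyp51 and Tm7sf2 1 each. Such matches describe the letters of these windows and are not measured binding sites.

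Arrays correlated at Pearson r of 0.991 to 0.998 over 28996 probe sets (not independent measurements), and array medians lay between 4.397 and 4.403 on the log2 scale. Pcyt2 had 4.638, 4.657, 4.669 and 4.604 on the 4 Pcyt2+/- arrays, against 4.887 and 4.796 on the wild type arrays, and its difference of -0.20 did not pass (limma adjusted p = 0.264). The liver label was checked with hepatocyte markers: all 7 measured ones, such as Alb, the serum albumin, had a mean above 5, from 8.77 to 12.29. Their summed linear signal ran from 14700 to 15900 on Pcyt2+/- arrays and from 15100 to 16910 on wild type arrays. Of these 7 markers 6 had a lower and 1 a higher mean in Pcyt2+/-, with a median difference of -0.060 (0.0020 without wild type replicate 3, and -0.18 with the other wild type array left out). Cps1, the first enzyme of the urea cycle, was the 1 of them with an unadjusted p under 0.05 (-0.56, limma adjusted p = 0.529). In the 6 lists for other cell types of the liver, 1 of 39 measured markers (Dcn, of stellate cells and fibroblasts, 5.08) had a mean above 5, and 0 of the 39 had an unadjusted limma p under 0.05. In whole liver, fewer cells of a type and less RNA per cell cannot be told apart.

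Each of the 7 enzymes had a lower mean signal in Pcyt2+/- than in wild type liver, as did 51.9% of all genes. The median of the 7 log2 differences (Pcyt2+/- minus wild type) was -0.061, against -0.00073 over all genes, and single values lay between -0.045 for Hmgcs1 and -0.18 for Tm7sf2. For 5 of the 7, Idi1, Sqle, Cyp51, Tm7sf2 and Ebp, all Pcyt2+/- arrays were below both wild type arrays, a separation that 7.17% of all genes showed in this direction. At an unadjusted limma p under 0.05, 5 of the 7 (Fdft1, Sqle, Cyp51, Tm7sf2 and Ebp) were lower and 0 higher, where 3.44% of all genes were lower. The count was 4 without wild type replicate 3 and 7 without Pcyt2+/- replicate 1. The enzymes were chosen with earlier results of these data known, so these shares describe them and are no independent test. The hepatocyte markers had nearly the same median difference, -0.060, which was 0.0020 without wild type replicate 3, where that of the enzymes was -0.056. Marker means ran from 8.77 to 12.29 and enzyme means from 4.27 to 4.69, so these log2 medians are not like measures. What part the markers have in the result was not tested. By limma with Benjamini-Hochberg adjustment 0 of the 7 passed, as did 0 of 18820 genes (0.0%), with adjusted p from 0.361 for Tm7sf2 to 0.936 for Hmgcs1 and Idi1. The exact permutation test (two-sided, 15 possible splits) cannot go below 0.0667 with 4 against 2 arrays, the p that Sqle, Cyp51, Tm7sf2 and Ebp each had.

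**Figure D1:**
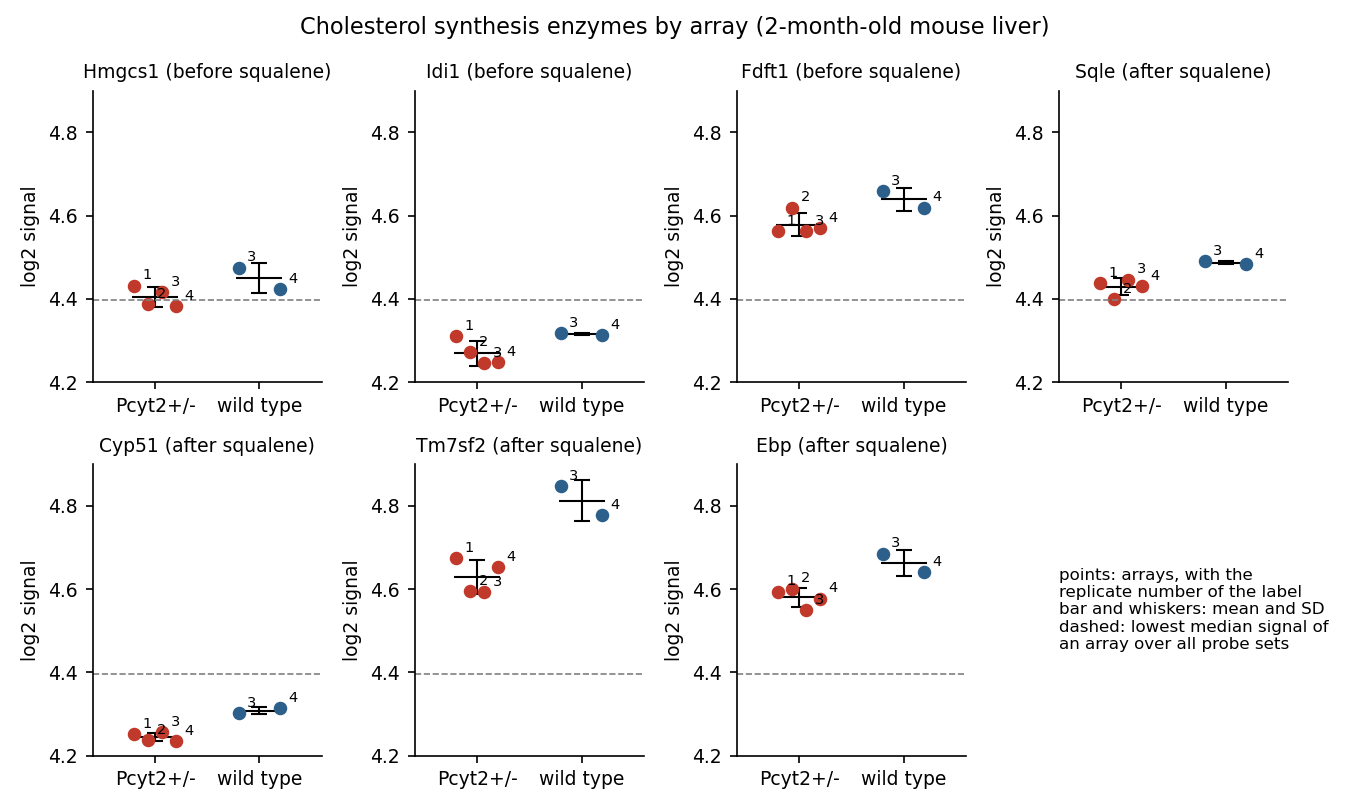
Log2 signal (vertical axes) of the 7 enzymes on the 4 Pcyt2+/- arrays (left in each panel) and the 2 wild type arrays (right), with the mean and SD of each group and the lowest array median, 4.397, as a dashed line. The Tm7sf2 groups are 0.10 apart at their nearest arrays, while Hmgcs1 has a Pcyt2+/- array above a wild type one.

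All 7 probe sets lay in the low band that holds most of this array, with means between 4.27 and 4.69, and 0 of the 7 had a mean above 5, as 5.55% of probe sets did. Cyp51 and Idi1 stayed under the array median on 6 of 6 arrays, Hmgcs1 was above it on 4 and Sqle on 5, and Fdft1, Ebp and Tm7sf2 were above it on all 6. For a probe set just above the array median, a log2 difference understates the change of the signal above that median, and the differences are given as measured. The SD within Pcyt2+/- was 0.0099 for Cyp51 and 0.042 for Tm7sf2, the smallest and largest of the 7.

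Of the steps before squalene, Hmgcs1 makes HMG-CoA, the precursor of mevalonate. Its log2 values were 4.432, 4.387, 4.416 and 4.383 on the 4 Pcyt2+/- arrays, and 4.475 and 4.424 on the wild type arrays. The groups overlapped, since Pcyt2+/- replicate 1 was above wild type replicate 4. The difference was -0.045 ± 0.020 (SE), its 95% interval reaching from -0.093 to 0.0028, and without wild type replicate 3 it was -0.020.

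Idi1, which interconverts isopentenyl and dimethylallyl diphosphate, had 4.311, 4.272, 4.246 and 4.248 in Pcyt2+/- and 4.317 and 4.313 in wild type liver. The groups were separated by 0.0029 only, with Pcyt2+/- replicate 1 just under both wild type arrays. Pcyt2+/- liver averaged 4.27 ± 0.030 (SD, n = 4) and wild type liver 4.32 ± 0.0028 (SD, n = 2), and the difference was -0.046 ± 0.019 (SE). A further Idi1 probe set, with a lower mean, had 4.241, 4.216, 4.202 and 4.204 in Pcyt2+/- liver and 4.242 and 4.236 in wild type liver. It too had a lower mean in Pcyt2+/- and stayed under the array median throughout.

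Fdft1, the squalene synthase, had 4.562, 4.619, 4.562 and 4.570 on Pcyt2+/- arrays and 4.658 and 4.619 on wild type arrays. Pcyt2+/- replicate 2 equalled wild type replicate 4, and the other 3 Pcyt2+/- arrays were lower than both wild type arrays. The difference was -0.061 ± 0.020 (SE), its 95% interval reaching from -0.11 to -0.012. In addition 2 probe sets were annotated to both Fdft1 and Ctsb, a lysosomal protease, and so did not count for Fdft1. The brighter had 5.334, 5.402, 5.335 and 5.342 in Pcyt2+/- liver and 5.321 and 5.318 in wild type liver, all Pcyt2+/- arrays being higher. The dimmer had 4.822, 4.787, 4.785 and 4.867 in Pcyt2+/- and 4.891 and 4.860 in wild type liver, where the groups overlapped. How much of either signal belongs to Fdft1 cannot be told apart.

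Sqle, the squalene epoxidase and a control point of the pathway, had 4.438, 4.400, 4.446 and 4.430 in Pcyt2+/- liver, against 4.490 and 4.484 in wild type liver. The wild type arrays agreed closely and each Pcyt2+/- array was at least 0.038 lower. The difference was -0.059 ± 0.015 (SE), its 95% interval reaching from -0.093 to -0.024.

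Cyp51, the P450 that removes a methyl group from lanosterol, had the smallest SD of the 7 among Pcyt2+/- arrays. It had 4.251, 4.238, 4.256 and 4.235 on Pcyt2+/- arrays and 4.302 and 4.314 on wild type arrays, 2 narrow groups 0.046 apart. All of these values were under the array median. Pcyt2+/- liver averaged 4.25 ± 0.0099 (SD, n = 4) and wild type liver 4.31 ± 0.0090 (SD, n = 2). The difference was -0.063 ± 0.011 (SE), its 95% interval reaching from -0.089 to -0.037 (limma adjusted p = 0.429). It was also the 1 enzyme for which wild type replicate 4 was the highest of the 6 arrays.

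Tm7sf2, a sterol reductase that saturates the double bond left by Cyp51, had the largest difference of the 7. Its values were 4.675, 4.595, 4.593 and 4.653 in Pcyt2+/- liver and 4.847 and 4.777 in wild type liver, so the groups were 0.10 apart. Pcyt2+/- liver averaged 4.63 ± 0.042 (SD, n = 4) and wild type liver 4.81 ± 0.049 (SD, n = 2). The difference was -0.18 ± 0.030 (SE), its 95% interval reaching from -0.25 to -0.11 (limma adjusted p = 0.361). As linear signal this was a change of -11.9%. Of all genes, 0.526% had a more negative difference, against 1.69% for Ebp and 2.43% to 4.03% for the other 5 enzymes.

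Ebp, the isomerase that shifts a double bond in the sterol ring, had 4.594, 4.601, 4.549 and 4.577 in Pcyt2+/- liver, against 4.685 and 4.640 in wild type liver. Each Pcyt2+/- array was below both wild type arrays, by 0.039 at the nearest. The difference was -0.082 ± 0.019 (SE), its 95% interval reaching from -0.13 to -0.037 (limma adjusted p = 0.626). When each array's median was subtracted on the linear scale, which was done for genes with a mean above 4.6, the log2 difference was -0.59 for Ebp (adjusted p = 0.326) and -0.96 for Tm7sf2 (adjusted p = 0.186). Little signal of Ebp and Tm7sf2 is left above the array median, so this scale also magnifies small variation between arrays. The other 5 enzymes lay below that limit of 4.6 and were not computed this way.

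**Figure D2:**
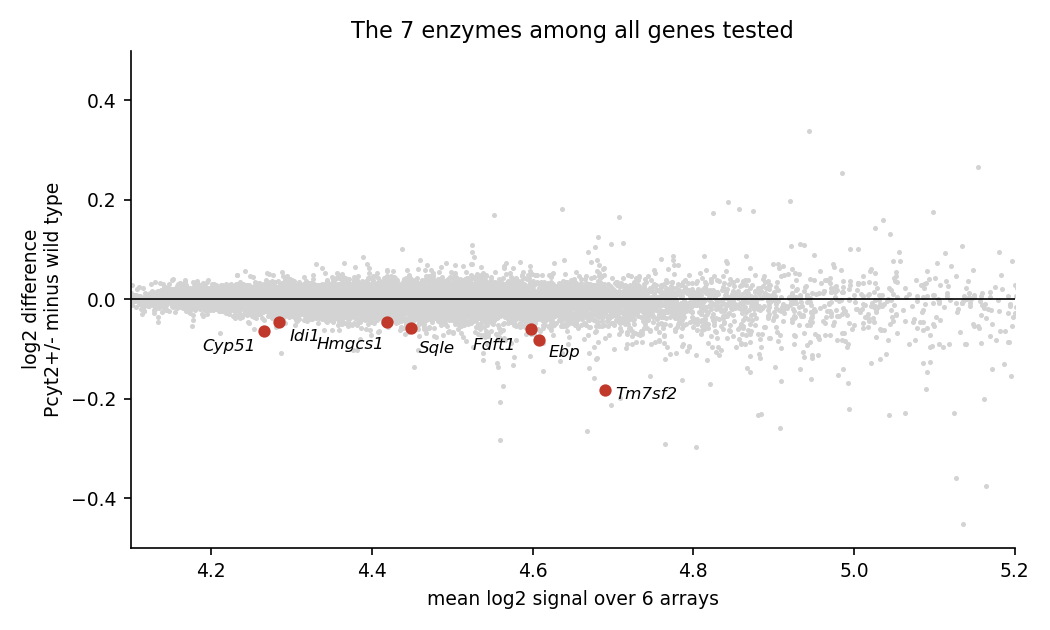
Mean log2 signal over 6 arrays (horizontal) against the log2 difference, Pcyt2+/- minus wild type (vertical), with the 7 enzymes in red among all genes in grey, 653 of which lie outside the plotted area. The 7 sit at the lower edge of the dense band, Tm7sf2 farthest below 0 at -0.18.

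Enzymes before and after squalene were both on the lower side. The 3 before squalene had a median difference of -0.046, and 1 of them (Idi1) had groups that did not overlap. The 4 from squalene onwards had a median of -0.073, and all 4 had groups that did not overlap. Over all genes the median was -0.00073, and 7.17% were separated in this direction. The enzymes were chosen with earlier results known, so these counts only describe them. Averaged over the 3 early enzymes, the deviation from each enzyme's own mean was 0.00049, -0.0080, -0.026 and -0.034 on Pcyt2+/- replicates 1 to 4 and 0.049 and 0.018 on wild type replicates 3 and 4. Over the 4 late enzymes it was -0.013, -0.044, -0.042 and -0.029 in Pcyt2+/- and 0.078 and 0.051 in wild type liver. In both stages each Pcyt2+/- array was under both wild type arrays, and Pcyt2+/- replicate 1 came nearest to them. The difference between the stages was not tested.

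Some arrays kept their place from enzyme to enzyme. Wild type replicate 3 was the highest of the 6 arrays for 6 of the 7 enzymes. Pcyt2+/- replicate 3 was the lowest for 4, with a tie on Fdft1. With each array left out in turn, all 7 differences stayed below 0. The groups of Idi1, Sqle, Cyp51, Tm7sf2 and Ebp did not overlap, and those of Fdft1 only met. For these enzymes leaving out 1 array could not turn the sign. The differences were largest without wild type replicate 4 for Hmgcs1, Fdft1, Tm7sf2 and Ebp. Hmgcs1 was the 1 enzyme whose difference shrank by more than 1.5 times, by 2.3 times without wild type replicate 3.

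**Figure D3:**
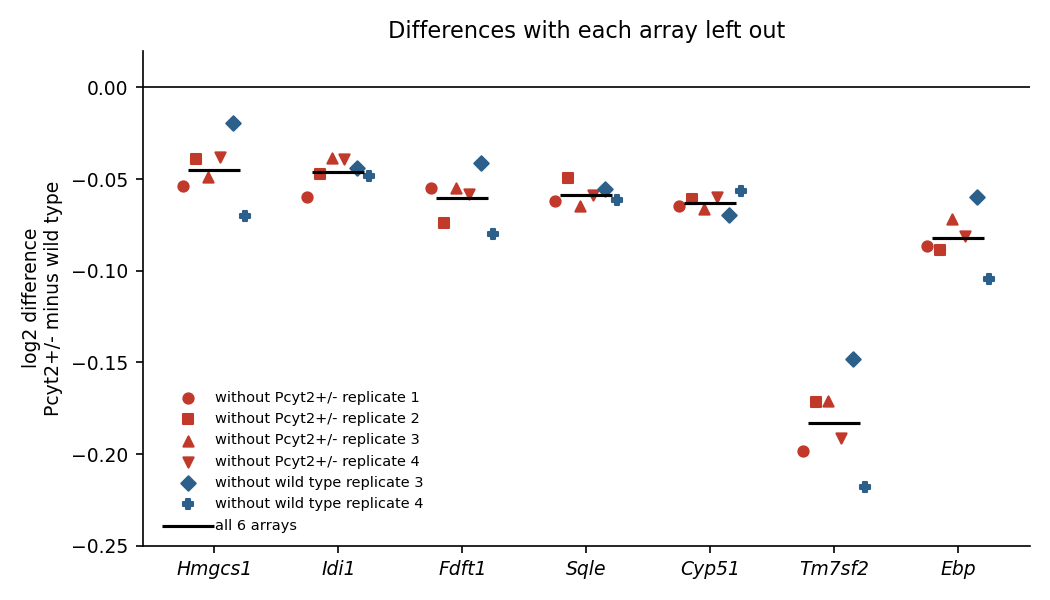
Log2 difference, Pcyt2+/- minus wild type (vertical), of the 7 enzymes with each of the 6 arrays left out (symbols, red for Pcyt2+/- and blue for wild type arrays) and with all 6 (black bars). All points are below 0, from -0.020 for Hmgcs1 to -0.22 for Tm7sf2. Where the groups do not overlap, leaving out an array cannot turn the sign.

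Other steps of the pathway were counted before and after squalene. At an unadjusted limma p under 0.05, 648 of all 18820 genes (3.44%) were lower in Pcyt2+/- and 350 higher. These lists and those below were chosen with earlier results known, so their counts only describe them. Of 5 other measured genes up to the farnesyl and geranylgeranyl diphosphates, 4 had a lower and 1 a higher mean in Pcyt2+/-, with a median difference of -0.010, and 0 passed by limma over all genes (with unadjusted p under 0.05, 1 lower and 0 higher). The direction counts and the median rested on wild type replicate 3: without it 2 were lower and 3 higher, and the median was 0.0012. With any 1 Pcyt2+/- array left out, 0 had an unadjusted limma p under 0.05. Mvd, which makes isopentenyl diphosphate, had -0.034 (-0.014 without wild type replicate 3), and Fdps, the farnesyl diphosphate synthase, had -0.033 (0.0076 without wild type replicate 3). The mevalonate kinases Mvk and Pmvk had -0.010 (0.0012 without wild type replicate 3) and -0.0054 (0.0 without Pcyt2+/- replicate 4), each with overlapping groups. Ggps1, which makes geranylgeranyl diphosphate outside the sterol branch, had 0.010 (0.00049 without Pcyt2+/- replicate 2).

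Of 7 other measured genes from lanosterol formation to cholesterol, 6 had a lower and 1 a higher mean, with a median difference of -0.078, and 0 passed (with unadjusted p under 0.05, 3 lower and 0 higher). The median was -0.027 without wild type replicate 3 and -0.043 when replicate 4 was left out of the wild type group, and the 3 with an unadjusted p under 0.05 became 1 without wild type replicate 3 and 5 without Pcyt2+/- replicate 1. Msmo1, Nsdhl and Hsd17b7 act in turn to take off the methyl groups at another position of the ring. Msmo1, the methyl oxidase, had 4.50 ± 0.046 (SD, n = 4) in Pcyt2+/- and 4.62 ± 0.090 (SD, n = 2) in wild type liver, and differed by -0.12. Nsdhl, the decarboxylating dehydrogenase, had -0.078, and Hsd17b7, the ketoreductase, had -0.10. These 3 rested more on single wild type arrays: without wild type replicate 3 Msmo1 had -0.059 and Nsdhl -0.027, and without wild type replicate 4 Hsd17b7 had -0.043. Sc5d, a sterol desaturase and the 1 gene of this group with a mean above 5, had -0.10 (-0.040 without wild type replicate 3), and Dhcr7, a late sterol reductase, had -0.027. Lss, which closes the lanosterol rings between Sqle and Cyp51, had 0.0063 (95% interval -0.024 to 0.037; 0.00081 without Pcyt2+/- replicate 1). Lbr, a nuclear membrane protein with the same reductase activity as Tm7sf2, had -0.0068 (95% interval -0.054 to 0.040; 0.0024 without Pcyt2+/- replicate 4). The contrast between Lbr and Tm7sf2 was not tested.

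**Figure D4:**
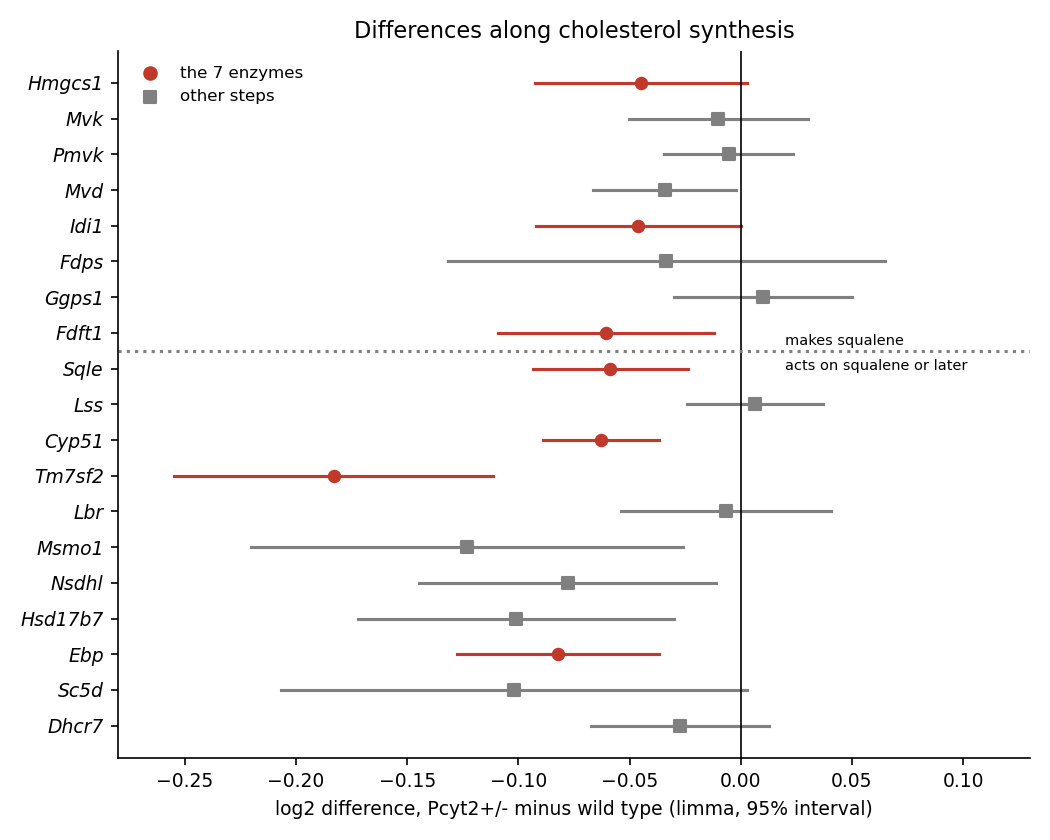
Log2 difference, Pcyt2+/- minus wild type, with limma's 95% interval (horizontal) for 19 genes in the approximate order of the pathway, the 7 enzymes as red circles and other steps as grey squares. Tm7sf2 at -0.18 is farthest from 0, and the intervals of Lss and Lbr lie around 0.

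Genes that control SREBP processing included Insig1, itself an SREBP target, whose protein holds SREBP in the endoplasmic reticulum. Insig1 had 4.645, 4.510, 4.589 and 4.574 in Pcyt2+/- liver and 4.979 and 4.709 in wild type liver, with no overlap. Its difference was -0.26 (limma adjusted p = 0.723), and -0.13 without wild type replicate 3. Srebf2, which encodes SREBP2, had 4.67 ± 0.015 (SD, n = 4) in Pcyt2+/- and 4.70 ± 0.0090 (SD, n = 2) in wild type liver, and differed by -0.025. Srebf1 had -0.00024, with a sign that turned without some single arrays. Scap, the escort of SREBP to the Golgi, had 0.057, the direction opposite to that of the 7 enzymes, with overlapping groups. Insig2, an Insig1 relative, had -0.050, and its wild type arrays lay far apart at 5.501 and 6.137, so that without wild type replicate 4 the difference was 0.27. Of the 10 measured control genes 0 passed, 1 was lower and 1 higher with an unadjusted p under 0.05, and the median was -0.0060 (-0.0032 without Pcyt2+/- replicate 4 and -0.011 without wild type replicate 3).

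Among 8 other measured SREBP2 targets, 7 had a lower and 1 a higher mean, 0 passed, and the median was -0.0088 (-0.0044, with 5 lower and 3 higher, without Pcyt2+/- replicate 1, and -0.014 without wild type replicate 4). Tmem97, a sterol-regulated membrane protein, had -0.15 (-0.11 without wild type replicate 3), and was the 1 of them with an unadjusted p under 0.05. Npc1l1, the sterol importer, had -0.027 (-0.0056 without wild type replicate 3), and Acss2, an acetyl-CoA synthetase, had -0.011 (-0.0042 without Pcyt2+/- replicate 4). For sterol efflux and LXR targets, 3 of 7 had a lower and 4 a higher mean, the median was 0.026 and 0 passed (with unadjusted p under 0.05, 0 lower and 1 higher). Without wild type replicate 4 the median was -0.0012, with 4 lower and 3 higher, and without Pcyt2+/- replicate 2 it was 0.015. Abcg8, of the biliary sterol exporter, had 0.053, Abca1, which loads cholesterol onto HDL, 0.028, and Lpcat3, a phospholipid acyltransferase, 0.057 (0.020 without Pcyt2+/- replicate 2).

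In the list of cholesterol esters, uptake and bile acid steps, 5 of 9 measured genes had a lower and 4 a higher mean, the median was -0.028 and 0 passed (with unadjusted p under 0.05, 2 lower and 0 higher). That median rested on single arrays: it was 0.034, with 4 lower and 5 higher, without Pcyt2+/- replicate 3, -0.014 without Pcyt2+/- replicate 4, -0.012 without wild type replicate 4 and -0.064 without wild type replicate 3. Cyp7a1, which opens bile acid synthesis from cholesterol, had -0.30, and Cyp39a1, an oxysterol hydroxylase, had -0.097 (-0.064 without wild type replicate 4). Hsd3b7, a sterol dehydrogenase of bile acid synthesis, had 0.20 (0.14 without Pcyt2+/- replicate 1), with overlapping groups. Of 12 measured SREBP1 targets of fatty acid synthesis, 10 had a lower and 2 a higher mean, the median was -0.034 and 0 passed. With an unadjusted limma p under 0.05, 6 were lower and 0 higher, where 3.44% of all genes were lower. The lower count ran between 5 and 8 with single Pcyt2+/- arrays left out. Elovl5, a fatty acid elongase, had -0.60, Fads2, a desaturase, -0.35 and Fasn, the fatty acid synthase, -0.075.

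Among 792 genes with a mean above 5 and no member of the 7, the 6 whose pattern over the 6 arrays was nearest to the mean pattern of the enzymes were Ces1d, Selenop, Use1, Aldh3a2, Wrnip1 and 2410018L13Rik. Nearness was the Euclidean distance between profiles centred on their mean and divided by their SD. It was 0.125 for Ces1d and 0.573 for 2410018L13Rik, with a median of 2.79 over the 792 genes. Among the 7 enzymes Tm7sf2 was nearest to their own mean pattern (0.602) and Fdft1 farthest (1.48). Ces1d, a carboxylesterase, had 5.772, 5.719, 5.710 and 5.686 in Pcyt2+/- liver and 5.946 and 5.872 in wild type liver. Selenop, the plasma selenium carrier, had a difference of -0.16, and Aldh3a2, a fatty aldehyde dehydrogenase, one of -0.14. All 6 had groups that did not overlap, which their choice by this pattern makes likely.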

How the data were processed

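Per the labels' protocols, 100 ng of liver RNA from each mouse was labelled with biotin and hybridised to Affymetrix arrays. The authors' deposited log2 values, 1 for each probe set and array, came from RMA, as the submitters' processing notes name it. The sources used here give neither its version nor a build.

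Of 28996 probe sets, 21218 had 1 gene symbol, 1881 several and 5897 were unnamed here. For 1386 genes with several rows the brightest was used, giving 18820 genes. RefSeq identifiers (GRCm38.p6) changed 0 symbols. All 6 arrays entered limma 3.58.1 in R 4.3.3 (lmFit, eBayes, two-sided, no covariates), Benjamini-Hochberg adjusted over these genes, and 0.05 was the threshold. The fit was first run on simulated data with changes larger than those of the enzymes. That run does not show how well differences as small as theirs are found. Python 3.11.15, pandas 2.3.3 and matplotlib 3.10.9 did the rest. Limma p-values set each difference against the spread between mice within groups, moderated over all genes, and the number of arrays limits precision.

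The members and lists were chosen with earlier results of these data known. Of 69 other list genes 58 were measured. Named were Pcyt2, the 7 enzymes, 5 SREBP control genes, all other measured pathway steps, the 3 genes of smallest p in each further list, and the 6 genes of nearest pattern. Alternatives covered the rows per gene, dim genes, scaling, background, the variance prior, array weights, pairing by replicate number and single arrays.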

Additional observations from a re-analysis of the deposited data

Results flagged for a closer look

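Fdft1 in the 4 Pcyt2+/- livers had 1 array far from the others: replicate 2, at 4.619, where the other 3 lay between 4.562 and 4.570. The gap took 0.8475 of the range of the 4 arrays. Of 8 genes checked this way (the 7 enzymes and Pcyt2), 1 was picked out, and chance picks out about 1 in 20. Without this array the difference of Fdft1 was -0.074, against -0.061 with it.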

How the results depend on the processing

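The 7 enzymes had a difference below 0 in all 100 values from the 16 other settings, and 0 of the 100 passed (adjusted p from 0.11 to 0.9995). Settings that change only the variance estimate or the genes adjusted over left each difference unchanged, so its sign was fixed there. Averaging rows did so too for enzymes with a single row. Leaving out 1 array could not turn the sign either, save for Hmgcs1, whose groups overlapped. The median of the 7 lay between -0.070 without wild type replicate 4 and -0.056 without wild type replicate 3. With only genes of a mean above 5 none of the 7 entered, and with the array median subtracted on the linear scale Tm7sf2 and Ebp alone did, so these settings gave no median. The number of genes passing over all genes was 0 in the report, 3 among genes with a mean above 5, 3 with the array median subtracted and 9 with a trended and robust prior. It was 0 to 9 with 1 array left out, 9 without wild type replicate 3. A fit without 1 wild type array assumes that the other varies like the Pcyt2+/- arrays. Of 58 other list genes 0 passed in any setting. The cause of these shifts was not tested. Replicate numbers 3 and 4 occur in both groups, and the labels do not say that a number marks a litter or day. With the number as a replicate block, which leaves wild type compared with replicates 3 and 4 only, 2 genes passed over all genes and 0 of the 7, whose differences ran from -0.049 to -0.19 with adjusted p from 0.704 to 0.914.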
